A study of Mus musculus with 24 samples.

Results

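The granule cells of the dentate gyrus were followed through 10 genes that mark them, among 47069 gene IDs counted in the mouse hippocampus. The genes were listed by name as known marks of these cells, and the list was drawn up with earlier results of these data known. They were Prox1, Rfx3, Calb1, C1ql2, Stxbp6, Dsp, Pdzd2 and Lct, which are used as marks of mature granule cells, and Dcx and Neurod1, which are linked to immature neurons. All 10 were present in every library and all 10 passed the filter on low counts, with raw counts between 264 (Neurod1) and 7639 (Rfx3) in a library.

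The study sequenced RNA of the adult male mouse hippocampus, at 2 to 4 months of age, in animals in which Kdm5c, an X-linked gene for an enzyme that removes methyl groups from lysine 4 of histone H3, was inactivated in one of 2 ways. The constitutive mutants (KO) and their wild type mates (WT) had a mixed C57/129 F1 background, and each genotype was sampled untreated and after 1 h in a white box with plastic tubing and toys (novelty). In the inducible mutants (ifKO), on a C57BL/6J background, a floxed allele was combined with CaMKIIα-creERT2, a Cre that tamoxifen activates in forebrain excitatory neurons, granule cells included. Their reference, called control here, is named wt in the sample titles. Neither the control nor the ifKO mice were exposed to novelty. The Cre status and any tamoxifen dosing of the control mice were not given in the sources used here. There were 6 groups of 3 libraries, and each library held hippocampal tissue of 3 mice, so p-values measure the spread between pools. The KO and WT libraries had 50-base single reads and the ifKO and control libraries 75-base read pairs from another flowcell. Strain, read type and flowcell therefore cannot be told apart between the lines, and levels were not tested across them.

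Granule cells receive the main input of the hippocampus from the entorhinal cortex and send mossy fibres to CA3. They are also among the few neurons added in the adult rodent brain, where progenitors pass through an immature stage that expresses Dcx before maturing. Prox1 is a homeobox transcription factor needed for granule cell identity, and Calb1, the calcium buffer calbindin, appears as the cells mature, though CA1 neurons and some interneurons also express it. In bulk RNA of whole hippocampus, fewer cells of a type and less RNA per cell cannot be told apart.

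The promoters of 4 members are shown. The first 3 belong to genes whose levels moved together from library to library, with or without a correction for base composition. Their largest movements fell in novelty libraries, as given below. The last belongs to the gene with the fewest CpG dinucleotides. Each window runs from 250 bases before to 50 after the transcript start in RefSeq (GRCm38.p6), minus strand, written 5′ to 3′. Capitals mark matches to CAGATG or CAGCTG (E-boxes, the kind of site that NEUROD1 binds) or GTTGCC (a motif of RFX proteins), searched on both strands. The windows are Prox1 at chr1:190170778-190171077, Stxbp6 at chr12:45074434-45074733, Rfx3 at chr19:28011117-28011416 and Lct at chr1:128328269-128328568.
Prox1: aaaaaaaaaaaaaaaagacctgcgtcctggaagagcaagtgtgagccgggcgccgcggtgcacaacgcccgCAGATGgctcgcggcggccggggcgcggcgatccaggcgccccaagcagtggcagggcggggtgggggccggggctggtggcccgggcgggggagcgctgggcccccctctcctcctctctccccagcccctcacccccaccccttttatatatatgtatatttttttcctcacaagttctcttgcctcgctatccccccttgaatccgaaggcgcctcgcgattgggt
Stxbp6: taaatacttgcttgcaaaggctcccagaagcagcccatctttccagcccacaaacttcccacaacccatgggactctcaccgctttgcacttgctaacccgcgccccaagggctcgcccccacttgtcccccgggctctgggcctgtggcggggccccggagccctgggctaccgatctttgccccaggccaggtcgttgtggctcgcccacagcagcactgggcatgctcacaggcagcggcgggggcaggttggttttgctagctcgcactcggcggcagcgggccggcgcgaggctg
Rfx3: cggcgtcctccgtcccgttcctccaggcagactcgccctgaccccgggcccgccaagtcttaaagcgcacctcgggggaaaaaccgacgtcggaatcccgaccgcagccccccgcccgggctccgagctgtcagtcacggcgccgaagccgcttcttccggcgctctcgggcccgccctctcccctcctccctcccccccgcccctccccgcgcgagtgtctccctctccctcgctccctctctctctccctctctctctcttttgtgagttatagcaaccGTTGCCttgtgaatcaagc
Lct: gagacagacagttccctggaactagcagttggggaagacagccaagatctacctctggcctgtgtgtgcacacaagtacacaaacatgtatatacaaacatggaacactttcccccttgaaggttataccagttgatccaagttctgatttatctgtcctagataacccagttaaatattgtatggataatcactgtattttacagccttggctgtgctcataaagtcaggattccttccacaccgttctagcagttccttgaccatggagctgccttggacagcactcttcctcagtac

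RefSeq windows matched 9 of the 10 members, with 11 windows in all. Calb1 had none. An E-box of these letters was found in 1 of the 11 windows, that of Prox1, while 30.6% of 32851 mouse promoter windows hold one. GTTGCC was found in the windows of 2 members, Rfx3 and Dcx, and in 12.5% of all promoters. The windows of Dcx overlap and share the same match. The Lct window had 1 CpG and the Dcx windows 3 each, against a median of 7 over all promoters. The Rfx3 window had 31 and that of Prox1 shown above 25. These are matches of letters and do not show binding.

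Levels were compared between genes as CPM, the count of a gene scaled to the size of its library, per kilobase of exon and averaged over the 18 libraries. Calb1 was highest at 27.2 CPM per kb, followed by C1ql2, a secreted C1q-like protein of mossy fibre synapses, at 22.8 and Stxbp6, a syntaxin-binding protein, at 20.7. Prox1 had 13.8 and Rfx3, a transcription factor known for its part in ciliogenesis, 12 CPM per kb. Lct, the intestinal enzyme lactase, had 8.75 and Dsp, the desmosome protein desmoplakin, 8.50. Neurod1, a basic helix-loop-helix transcription factor, had 6.89, Pdzd2, a protein with PDZ domains, 4.15 and Dcx, a microtubule-binding protein, 2.35. Group means of neighbours in this order overlapped in range for Calb1 and C1ql2, for C1ql2 and Stxbp6, for Prox1 and Rfx3, for Lct and Dsp, and for Dsp and Neurod1.

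**Figure D1:**
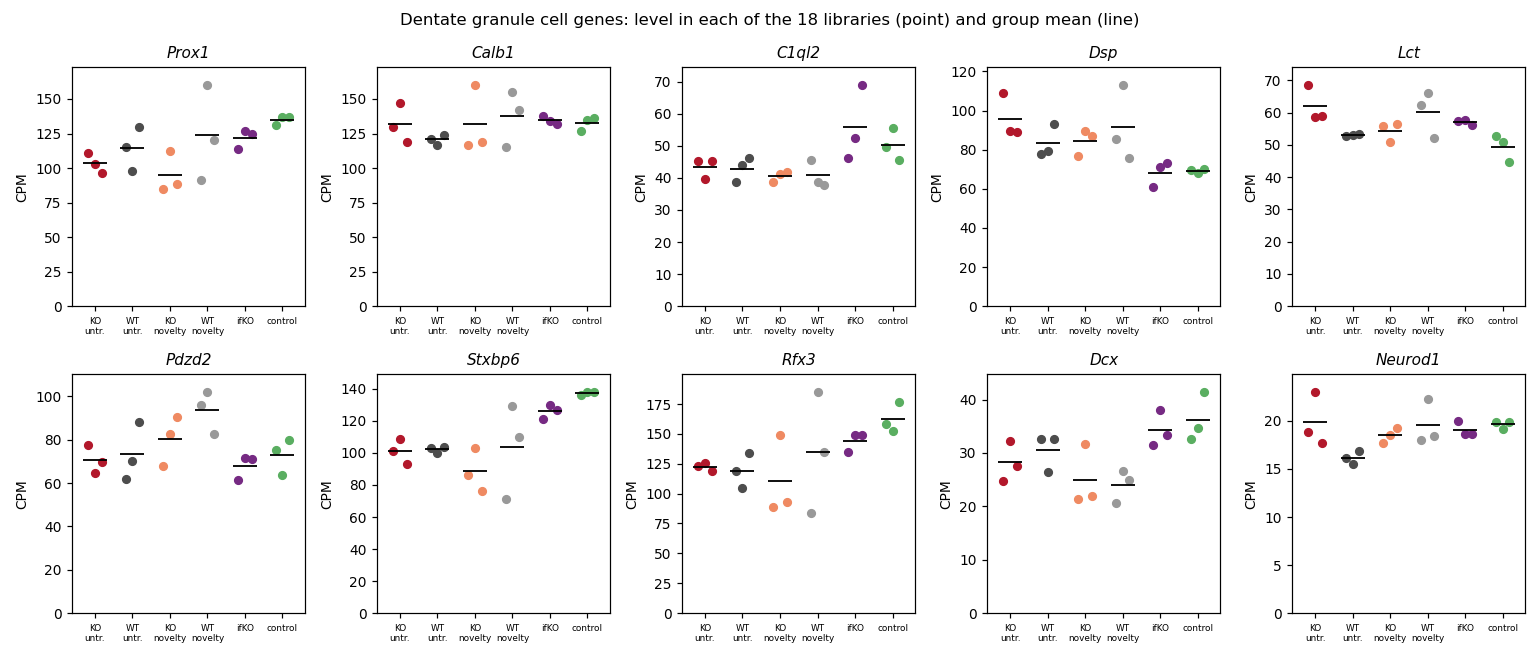
CPM of the 10 genes (y axis, linear from 0) in each of 18 libraries, by group (x axis). Points are libraries, each a pool of 3 mice, and black lines are group means of 3 libraries. Rfx3 spans 83.7 to 185 CPM within the WT novelty group alone.

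No member passed an adjusted p of 0.05 (edgeR quasi-likelihood test, Benjamini-Hochberg over all genes) between untreated KO and WT hippocampus, where 1.24% of 16392 genes did. The fitted log2 fold changes lay between -0.14 and 0.29, with a median of 0.03 against 0.00 over all genes. The 95% intervals of the 10 genes together reached from 0.702-fold to 1.45-fold, with SEs that differed between genes. DESeq2 also called 0 members. At an unadjusted p under 0.05 there were 2 members, Lct and Neurod1, against 8.66% of all genes.

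Lct had 68.5, 58.7 and 58.9 CPM in untreated KO libraries, against 52.8, 52.9 and 53.4 CPM in untreated WT libraries. All 3 KO libraries lay above all 3 WT libraries. The fitted difference was 0.23 ± 0.09 (log2, SE), with an adjusted p of 0.456 by edgeR. Neurod1 had 18.8, 23.0 and 17.7 CPM in untreated KO libraries, against 16.1, 15.5 and 16.9 CPM in untreated WT libraries, again without overlap. Its difference was 0.29 ± 0.11 (log2, SE, adjusted p = 0.408 by edgeR), and 0.18 without KO untreated library 2. That library also stood apart in choroid plexus genes, as did control library 1. Neurod1 had 19.9 CPM in control library 1, against 19.2 and 19.9 CPM in control libraries 2 and 3. A link between choroid plexus genes and the Neurod1 value was not tested. Separation of 3 libraries from 3, as for Lct and Neurod1, occurred in 21% of all genes tested in KO against WT untreated. The share of 2 of 10 members is close to that.

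After novelty, 0 of 10 members passed in KO against WT hippocampus (edgeR and DESeq2), where 1.34% of genes passed by edgeR. At an unadjusted p under 0.05 there was 1 member, Prox1, against 8.73% of all genes. Prox1 had 85.1, 112 and 88.3 CPM in KO novelty libraries, against 91.5, 160 and 120 CPM in WT novelty libraries. The groups overlapped, since KO library 2 was above WT library 1. The fitted difference was -0.38 ± 0.17 (log2, SE, adjusted p = 0.532 by edgeR). The other members had differences between -0.29 (Rfx3) and 0.05 (Dcx), and 9 of the 10 were below 0, with a median of -0.13 against 0.00 over all genes. Of all 16392 genes, 8298 were above 0. Several members moved together across libraries, as given below, so the 9 are not independent.

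The novelty comparison depended on 2 libraries, WT novelty 1 and KO novelty 2, which deviated most from their group means over all genes (SD of log2 deviations 0.211 and 0.224, against 0.101 to 0.174 in the other 16). An earlier look at these data had named them. Without both, edgeR called 4 members, all lower in KO novelty libraries, and 4.26% of all genes, against the 1.34% of the fit with every library. The members were Prox1 at -0.69 (adjusted p = 0.0108), Rfx3 at -0.82 (0.00289), Stxbp6 at -0.56 (0.00353) and Calb1 at -0.33 (0.0398). Leaving out either library alone, or any other single library, gave 0 members. For Rfx3 the values were 88.7, 149 and 93.3 CPM in KO novelty libraries, against 83.7, 185 and 135 CPM in WT novelty libraries, and the 2 libraries in question are the highest of the KO and the lowest of the WT group. For Stxbp6 they were 86.1, 103 and 76.2 CPM in KO novelty libraries, against 71.2, 129 and 110 CPM in WT novelty libraries, with the same 2 libraries at the extremes. Base composition also differed among the 4 libraries that remain. Across 14491 genes, the log2 deviation from the mean of the novelty libraries correlated with GC content at 0.14 and 0.40 in KO novelty libraries 1 and 3, against -0.51 and -0.25 in WT novelty libraries 2 and 3. In the pair left out it was -0.40 in KO novelty library 2 and 0.61 in WT novelty library 1. With the pair left out and offsets for GC content and transcript length, an alternative chosen after seeing the data, edgeR called 3 members and 2.83% of genes. They were Prox1 at -0.54 (adjusted p = 0.00918), Rfx3 at -0.53 (0.00186) and Stxbp6 at -0.45 (8.84e-04), while Calb1 had -0.08 (0.494).

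Over both treatments, 6 KO libraries were set against 6 WT libraries. No member was called by edgeR or DESeq2, where edgeR called 2.81% of genes, and 1 member had an unadjusted p under 0.05 against 11.9% of genes. Prox1 ranged from 85.1 to 112 CPM with a median of 99.4 in KO libraries, and from 91.5 to 160 CPM with a median of 117 in WT libraries. The groups overlapped and the difference was -0.26 ± 0.12 (log2, SE, adjusted p = 0.405 by edgeR). It lay between -0.35 and -0.15 when each library was left out in turn. With the GC and length offsets it was -0.30 with an adjusted p of 0.0303, where 4.53% of genes were called. With no filter on low counts it was -0.27 with an adjusted p of 0.0461 (2.28% of genes), and without the pair of libraries named above -0.42 with an adjusted p of 0.00975 (4.25% of genes). Prox1 therefore stood on either side of the threshold according to the processing, with the same sign in each.

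**Figure D2:**
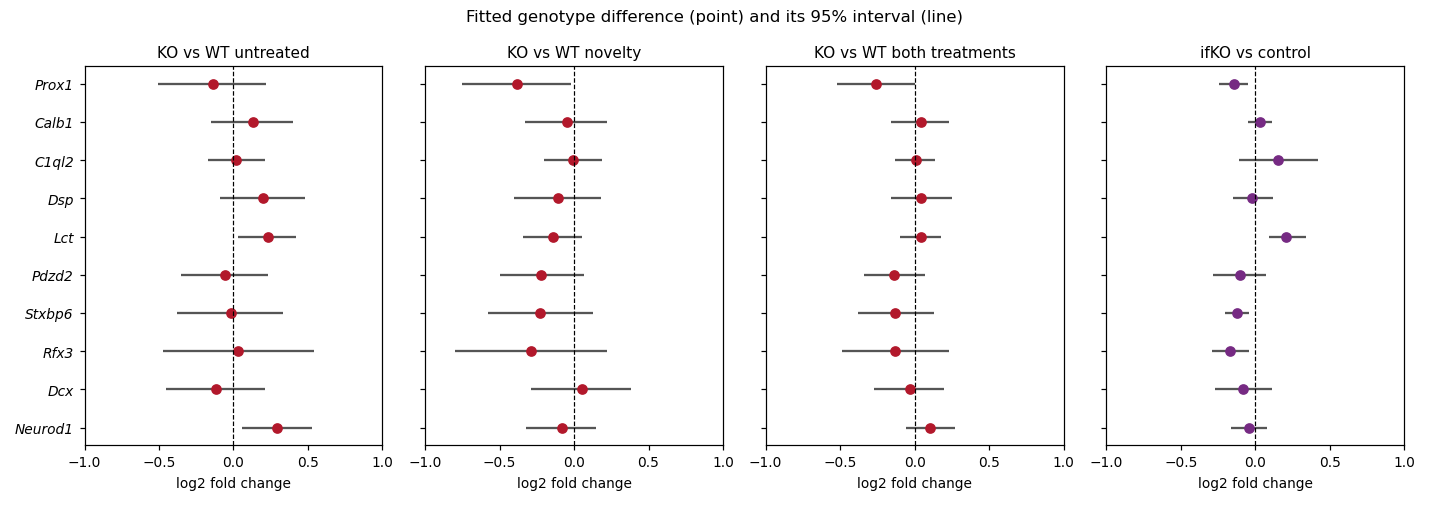
Fitted log2 fold change (x axis) of each gene (y axis) for KO minus WT untreated, after novelty and over both treatments, and for ifKO minus control. Points are edgeR estimates and lines their 95% intervals, unadjusted for the number of genes. For ifKO the intervals of Prox1, Lct, Stxbp6 and Rfx3 do not reach 0, and that of C1ql2 is the widest, from -0.11 to 0.42.

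In the inducible line, 0 of 10 members passed by edgeR or DESeq2, where edgeR called 0.645% of 17367 genes. At an unadjusted p under 0.05 there were 4 members, against 6.64% of genes, and the same 4 had no overlap between ifKO and control libraries, against 11.9% of genes. Prox1 had 114, 127 and 125 CPM in ifKO libraries, against 131, 137 and 137 CPM in control libraries. Every ifKO library was below every control library, by -0.14 ± 0.04 (log2, SE, adjusted p = 0.366 by edgeR). Stxbp6 had 121, 130 and 127 CPM in ifKO libraries, against 136, 138 and 138 CPM in control libraries, a difference of -0.12 ± 0.04 (adjusted p = 0.323 by edgeR). Rfx3 had 135, 149 and 149 CPM in ifKO libraries, against 158, 152 and 177 CPM in control libraries, a difference of -0.17 ± 0.06 (adjusted p = 0.481 by edgeR).

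Lct was the one of these 4 that was higher, with 57.3, 57.6 and 56.3 CPM in ifKO libraries, against 52.6, 50.8 and 44.8 CPM in control libraries. Its difference was 0.21 ± 0.06 (log2, SE, adjusted p = 0.22 by edgeR). With no filter on low counts edgeR called 3 members and 1.39% of genes in this comparison, Prox1 at -0.15 (adjusted p = 0.036), Lct at 0.21 (0.00459) and Rfx3 at -0.17 (0.00238). The intervals of the 10 members spanned 0.818-fold to 1.34-fold.

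C1ql2 had the widest spread in the inducible line, with 46.2, 52.3 and 68.9 CPM in ifKO libraries, against 49.7, 55.7 and 45.6 CPM in control libraries. One ifKO library stood above the rest and the other values interleaved. Dsp, with 60.7, 71.1 and 73.2 CPM in ifKO libraries against 69.8, 68.2 and 69.9 CPM in control libraries, had a difference of -0.02. Calb1 had 138, 134 and 132 CPM in ifKO libraries, against 127, 135 and 136 CPM in control libraries, a difference of 0.03.

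The genotype effects of the lines were compared in a fit of all 18 libraries, as KO minus WT untreated less ifKO minus control. No member passed (edgeR and DESeq2), where edgeR called 0.114% of 17508 genes. Neurod1 alone had an unadjusted p under 0.05, at 0.34 ± 0.13 (log2, SE, adjusted p = 1 by edgeR), against 4% of genes. The difference for Lct was 0.02 and for Prox1 0.00, and the intervals of the 10 members reached from 0.717-fold to 1.75-fold.

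After 1 h of novelty no member was called in WT hippocampus by edgeR or DESeq2, where edgeR called 0.384% of genes. At an unadjusted p under 0.05 there were 3 members, against 11% of genes. Pdzd2 had 95.9, 102 and 82.6 CPM in WT novelty libraries, against 62.0, 70.2 and 88.2 CPM in WT untreated libraries (0.34 ± 0.13, adjusted p = 0.347 by edgeR). Dcx had 20.7, 26.6 and 24.9 CPM in WT novelty libraries, against 32.6, 26.5 and 32.6 CPM in WT untreated libraries (-0.35 ± 0.15, adjusted p = 0.43 by edgeR). Both pairs of groups overlapped. With the GC and length offsets Dcx passed, at -0.37 with an adjusted p of 0.0212, where 2.09% of genes were called. Neurod1 had 18, 22.3 and 18.4 CPM in WT novelty libraries, against the 16.1, 15.5 and 16.9 CPM of WT untreated libraries, with no overlap (0.28 ± 0.11, adjusted p = 0.362 by edgeR), a separation seen in 15.9% of genes.

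In KO hippocampus no member passed between novelty and untreated (edgeR and DESeq2), against 0.11% of genes by edgeR, and 0 members had an unadjusted p under 0.05, against 6.71% of genes. Lct had 55.9, 51.0 and 56.4 CPM in KO novelty libraries, below the 68.5, 58.7 and 58.9 CPM of KO untreated libraries. Its difference was -0.19, with an adjusted p of 0.754 by edgeR, and 15% of genes separated in this way. The novelty effect in KO minus that in WT was called for 0 members and 0% of genes by edgeR. Lct (-0.37 ± 0.13) and Neurod1 (-0.37 ± 0.15) had unadjusted p under 0.05, against 3.43% of genes, both with an adjusted p of 1 by edgeR. As a check on the exposure, 4 of 11 immediate early genes, whose transcription follows neuronal activity, rose in WT libraries after novelty by edgeR. In KO libraries 1 of 11 rose and 10 of 11 had values above 0, and the interaction called 0. Their mean log2 CPM was 5.47 to 5.67 in KO and 5.49 to 5.69 in WT libraries after novelty, and 4.34 to 5.17 in KO and 3.42 to 4.73 in WT libraries untreated.

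The spread within groups differed between members. The SD of log2 CPM within groups was 0.30 for Rfx3, higher than in 98.5% of 9166 genes with a mean of 10 to 200 CPM, whose median was 0.10. It was 0.21 for Prox1, Stxbp6 and Dcx, 0.12 for Neurod1 and 0.11 for Lct. With offsets for GC content and length the SD was 0.15 for Rfx3, 0.14 for Prox1 and 0.06 for Calb1, while Pdzd2 (0.18), Dsp (0.16) and Lct (0.10) stayed within 0.01 of their values without offsets. The median of the 9166 genes was 0.08 with the offsets.

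In some libraries most members lay on the same side of the group mean. These counts were not set against all genes, and the members are correlated, as given below. WT untreated library 3 was above the mean of its group in 10 of 10 members, and also with the offsets. The average without offsets was 0.11 (log2), where the SD of deviations over all genes in that library was 0.13. WT novelty library 2 was above in 9 of 10 (8 of 10 with offsets), by 0.24 on average (log2). KO untreated library 3, WT untreated library 2 and KO novelty library 1 were each above their group mean in 1 of 10 members. Their averages were -0.07, -0.08 and -0.13, with SDs over all genes of 0.124, 0.151 and 0.149. WT novelty library 1 was above in 3 of 10 (-0.19 on average) and KO novelty library 2 in 8 of 10 (0.17). With the offsets these last 2 averages were -0.06 and 0.04.

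**Figure D3:**
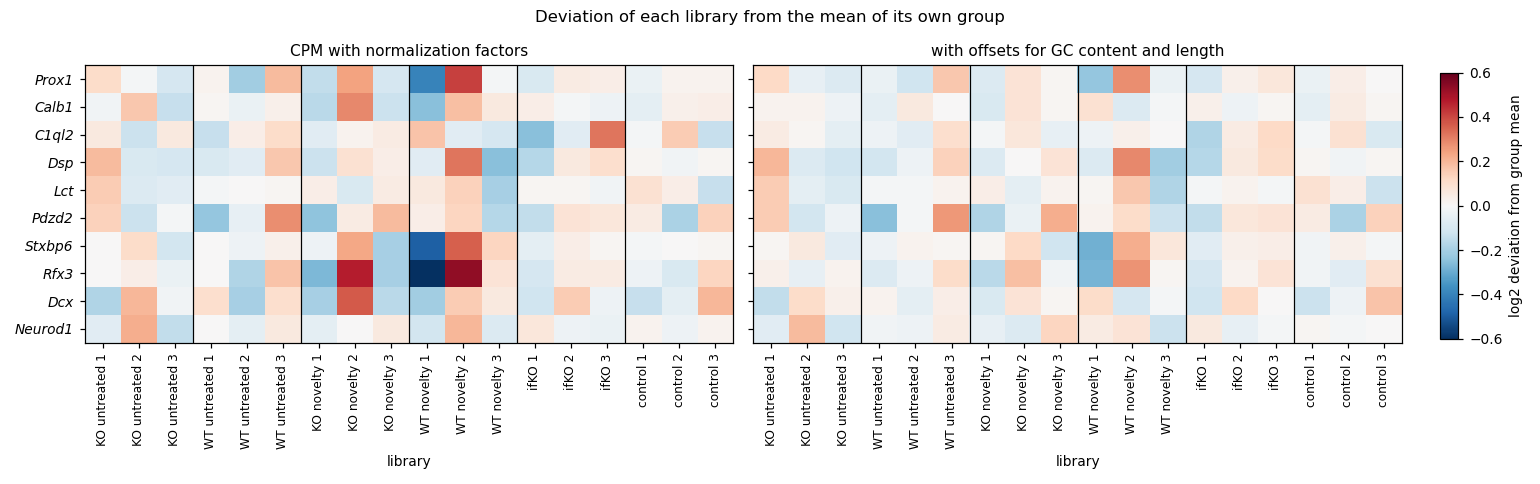
Deviation of log2 CPM from the mean of the library's own group, for 10 genes (rows) in 18 libraries (columns, groups separated by lines), without and with offsets for GC content and transcript length. Red is above and blue below the group mean. WT novelty 1 and 2 deviate in opposite directions for Prox1, Stxbp6 and Rfx3 in both panels.

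Some members moved together across these deviations. Of the 45 pairs, 11 had a correlation below 0, and 13 with the GC and length offsets. Over the 18 libraries Prox1 and Rfx3 had a correlation of 0.94, Stxbp6 and Rfx3 0.91 and Calb1 and Rfx3 0.87. These values describe libraries that also share depth and base composition. The largest deviations of these genes fell in WT novelty libraries 1 and 2 and KO novelty library 2. They were -0.61, 0.53 and 0.47 for Rfx3 and -0.40, 0.41 and 0.24 for Prox1 (log2). How far the correlations rest on these libraries was not tested. With the GC and length offsets the correlation of Prox1 and Rfx3 was 0.86 and that of Stxbp6 and Rfx3 0.77, whereas Calb1 and Rfx3 came to -0.18. Dsp and Pdzd2 had 0.75, and 0.74 with the offsets. Lct and Dcx had the lowest value, -0.49, and -0.58 with the offsets. The promoters of Prox1, Stxbp6 and Rfx3 printed above shared none of the motifs searched. Each motif occurs in only 12.5% to 17.2% of promoter windows, so the lack of a shared match does not show whether regulation is shared.

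Of 14503 genes, those whose deviations were most like the mean of the 8 mature-cell members were Hnrnpdl (0.95), 6720427I07Rik (0.94), Sema5a (0.93), Btbd3 (0.92) and Twf1 (0.92). With the GC and length offsets the closest were Fam163b (0.91), Hnrnpdl (0.91), Gm37570 (0.90), Map3k15 (0.88) and Fam84b (0.86). Sema5a and Fam163b are on the list of 11 other dentate genes used here, but Fam163b had 0.45 without offsets. Other genes of that list ranged down to -0.24 (Plk5) without offsets and -0.45 (Synpr) with them. For Dcx and Neurod1 together the closest were Esrrg (0.96), Gm37056 (0.94), Fundc2 (0.94), Impad1 (0.93) and Celf2 (0.93), and with the offsets none of these 5 remained among the closest 5.

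A list of 11 other dentate granule cell genes was read beside the members. Its mean log2 CPM was 5.01, 5.51 and 5.06 in KO novelty libraries, against 5.41, 5.79 and 5.36 in WT novelty libraries, and the 10 members gave 5.82, 6.11 and 5.91 in KO novelty libraries, against 5.89, 6.32 and 6.03 in WT novelty libraries. Within each novelty group both lists were highest in library 2. In the other dentate list 1 gene, Dgkh, a diacylglycerol kinase, carried most of the gap in the KO group, with 4.19, 57.3 and 3.33 CPM in KO novelty libraries, against 19.3, 27.6 and 5.87 CPM in WT novelty libraries. Without Dgkh, left out after its values had been seen, the list gave 5.30, 5.47 and 5.39 in KO novelty libraries, against 5.53, 5.89 and 5.64 in WT novelty libraries. Over all 18 libraries the members spanned 5.82 to 6.32, CA1 markers 6.09 to 6.43 and CA2 and CA3 markers 5.01 to 5.21. With the GC and length offsets the spans were 5.92 to 6.28, 6.04 to 6.42 and 5.04 to 5.23. The members then spanned no more than the CA1 markers but more than the CA2 and CA3 markers. The other dentate list spanned 5.01 to 5.83 without the offsets and 5.06 to 5.79 with them. Without Dgkh it still ran from 5.33 in KO novelty library 1 to 5.88 in WT novelty library 2 with the offsets. Choroid plexus genes, which mark tissue beside the hippocampus, were at 3.90 in KO untreated library 2 and 3.49 in control library 1, and between 0.58 and 1.59 in the other 16. Over both treatments the genes called in KO against WT libraries by edgeR were 0 of 6 CA1, 0 of 4 mossy cell, 0 of 6 choroid plexus, 0 of 6 microglia and 0 of 7 endothelial and mural markers. In the same comparison 1 of 10 CA2 and CA3 markers, 1 of 7 inhibitory neuron, 1 of 8 oligodendrocyte lineage and 1 of 5 blood cell genes were lower, and 1 of 6 thalamus, striatum and habenula genes and 1 of 6 astrocyte markers were higher. The part of dissection in the members' levels was not tested.

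**Figure D4:**
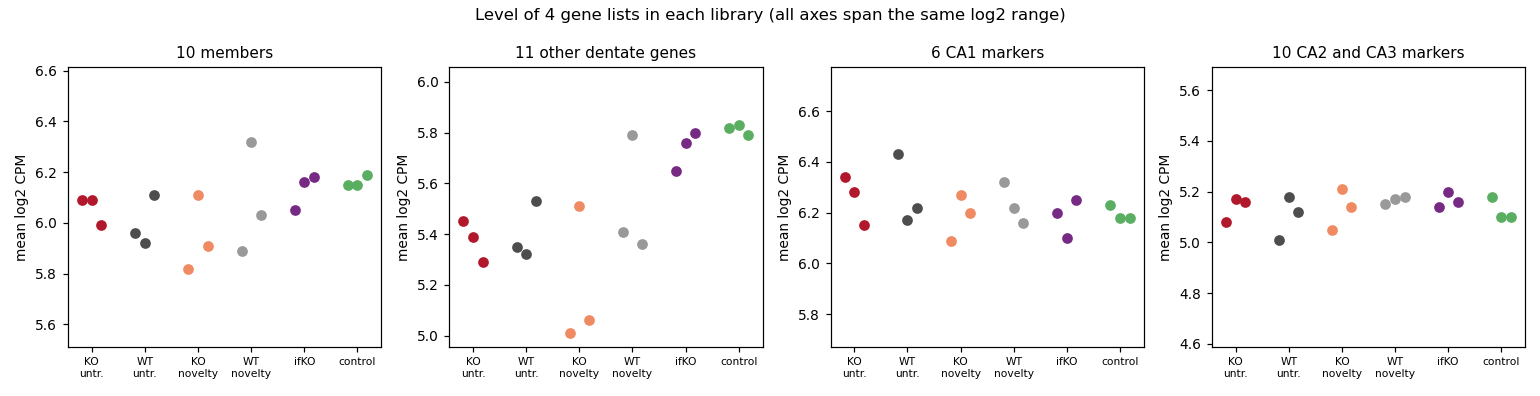
Mean log2 CPM (y axis) of the 10 members, 11 other dentate genes, 6 CA1 markers and 10 CA2 and CA3 markers in each library (points), by group (x axis), with y axes of equal span. The members span 5.82 to 6.32 and the other dentate genes 5.01 to 5.83, against 6.09 to 6.43 for CA1 and 5.01 to 5.21 for CA2 and CA3. With GC and length offsets, which are not plotted, members span 5.92 to 6.28 and the other dentate genes 5.06 to 5.79. CA1 markers then span 6.04 to 6.42 and CA2 and CA3 markers 5.04 to 5.23.

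Among the 11 other dentate genes, 3 fell in KO over both treatments and none rose, where 0.494% of genes passed in that direction. Their choice was made with earlier results of these data known, so the count is not independent evidence of direction. Npnt, the matrix protein nephronectin, ranged from 27.5 to 35.0 CPM (median 31.2) in 6 KO libraries and from 40.5 to 48.9 CPM (median 41.8) in 6 WT libraries. The groups did not overlap, a separation seen in 2.51% of genes in either direction, in 0.519% with KO lower, and in 0 of the 10 members. Its difference was -0.46 ± 0.07 (log2, SE, adjusted p = 9.26e-04 by edgeR). Tdo2, which breaks down tryptophan, ranged from 3.38 to 5.16 CPM in KO libraries and from 4.87 to 8.18 CPM in WT libraries (-0.70 ± 0.13, adjusted p = 0.00679 by edgeR). Plk5, a polo-like kinase family member, ranged from 14 to 21.8 CPM in KO libraries and from 19.9 to 28.7 CPM in WT libraries (-0.39 ± 0.09, adjusted p = 0.0219 by edgeR). Plk5 lost its call without KO untreated library 1 (adjusted p = 0.0505) or 2 (adjusted p = 0.0605), while Npnt and Tdo2 kept theirs without any single library. Against a fold change of 1.2 Npnt (adjusted p = 0.0775 by edgeR) and Plk5 (0.738) lost their calls, while Tdo2 kept its call.

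In the single comparisons, 0 of the 11 passed between untreated KO and WT, and Npnt (-0.53 ± 0.09, adjusted p = 0.00915) and Plk5 (-0.55 ± 0.12, adjusted p = 0.0458) fell in KO after novelty by edgeR, where 0.14% of genes fell. Npnt lost that call without KO novelty library 1 (adjusted p = 0.0658), with only the groups compared (0.0575) and against a fold change of 1.2 (0.139). Plk5 lost it without any one of 5 of the 6 libraries, with the replicate block (0.0773), with only the groups compared (0.0846), against a fold change of 1.2 (0.322) and without the pair of libraries (0.0713). In the inducible line 0 of 11 passed by edgeR. Npnt had 25.0, 26.5 and 28.0 CPM in ifKO libraries, against 30.9, 31.1 and 31.9 CPM in control libraries, without overlap (-0.24 ± 0.05, adjusted p = 0.0934 by edgeR). Tdo2 had 6.30, 7.05 and 6.86 CPM in ifKO libraries, against 9.21, 8.26 and 7.78 CPM in control libraries (-0.32 ± 0.09, adjusted p = 0.339 by edgeR).

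Of 14 genes of progenitors and immature neurons, 13 were tested and 2 rose in KO over both treatments, where 2.32% of genes did. The list went both ways, with 7 of 13 values above 0 and a median of 0.02 (log2). At an unadjusted p under 0.05 by edgeR 3 were higher and 2 lower, against 11.9% of all genes. The 2 lower were Draxin (-0.42 ± 0.17) and Dpysl3 (-0.11 ± 0.05). Dcx and Neurod1 were not among the genes called. Neurog2, a proneural transcription factor, ranged from 0.713 to 1.04 CPM in KO libraries and from 0.032 to 0.397 CPM in WT libraries, from 130 and 36 reads in all (1.70 ± 0.35, adjusted p = 0.0158 by edgeR). Hopx, which astrocytes also express, ranged from 47.6 to 59.3 CPM in KO libraries and from 41.7 to 49.9 CPM in WT libraries (0.30 ± 0.06, adjusted p = 0.0158 by edgeR). Neurog2 lost its call without WT untreated library 3 (adjusted p = 0.053) and Hopx without WT novelty library 3 (adjusted p = 0.0506). Hopx also lost its call when tested against a fold change of 1.2, while Neurog2 kept its call. Astrocyte markers had 1 of 6 called higher in the same comparison and 5 of 6 higher at an unadjusted p under 0.05. Their mean log2 CPM was 7.54 to 7.72 in KO libraries and 7.45 to 7.54 in WT libraries, and their part in the Hopx value was not tested.

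**Figure D5:**
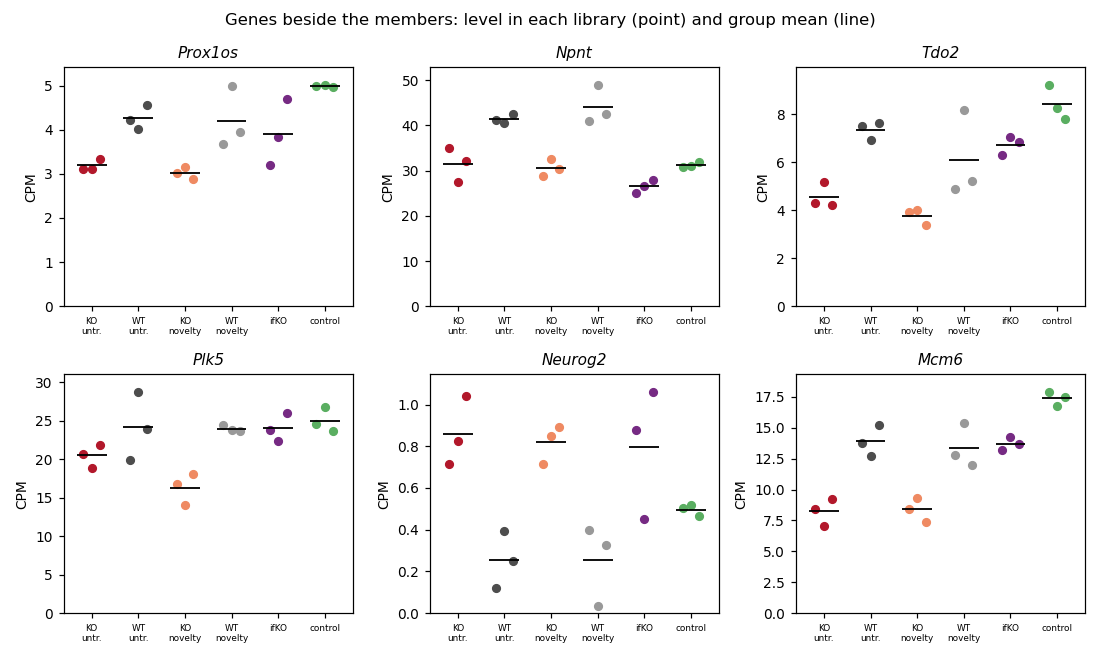
CPM (y axis, linear from 0) of Prox1os, Npnt, Tdo2, Plk5, Neurog2 and Mcm6 in each library (points) with group means of 3 libraries (lines), by group (x axis). Npnt, Prox1os, Neurog2 and Mcm6 do not overlap between the 6 KO and 6 WT libraries.

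Next to 2 members, genes were called that were singled out after their values had been seen. Prox1os, an antisense RNA on the plus strand of chromosome 1 (GRCm38, 190170296 to 190217276), overlaps the start of Prox1 (190118035 to 190170714, minus strand), and the Prox1 promoter window printed above lies within it. It ranged from 2.88 to 3.34 CPM in 6 KO libraries and from 3.68 to 4.99 CPM in 6 WT libraries, without overlap. The difference was -0.45 ± 0.10 (log2, SE, adjusted p = 0.0232 by edgeR), and leaving out any one of 6 of the 12 libraries ended the call, with adjusted p up to 0.075. The call also ended against a fold change of 1.2 (adjusted p = 0.448 by edgeR). In the inducible line Prox1os had 3.21, 3.83 and 4.70 CPM in ifKO libraries, against 5.0, 5.01 and 4.97 CPM in control libraries (-0.35 ± 0.13, adjusted p = 0.599 by edgeR). The libraries were stranded per the labels, but the strand setting of the counting was not given in the sources used here, so reads of Prox1 and Prox1os may not be fully separated.

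Mcm6, a subunit of the replicative helicase, lies 3271 bases from Lct on the same strand of chromosome 1 (128331590 to 128359664; Lct 128284756 to 128328318). It had 8.42, 7.04 and 9.23 CPM in untreated KO libraries, against 13.8, 12.7 and 15.2 CPM in untreated WT libraries (-0.75 ± 0.13, adjusted p = 0.00876 by edgeR). After novelty it had 8.46, 9.36 and 7.35 CPM in KO libraries, against 12.8, 15.4 and 12 CPM in WT libraries (-0.68 ± 0.13, adjusted p = 0.019 by edgeR). In the inducible line it had 13.2, 14.3 and 13.7 CPM in ifKO libraries, against 17.9, 16.8 and 17.5 CPM in control libraries (-0.34 ± 0.06, adjusted p = 0.0352 by edgeR). In these main fits Mcm6 fell in all 3 comparisons while Lct, its neighbour, passed in none. With no filter on low counts Lct passed in the inducible line, higher in ifKO (0.21, adjusted p = 0.00459 by edgeR). Single libraries ended the Mcm6 call in 2 of 6 cases untreated, 3 of 6 after novelty and 6 of 6 in the inducible line. The Mcm6 call also ended after novelty with only the groups compared (adjusted p = 0.0957 by edgeR) and against a fold change of 1.2 (0.108). In the inducible line it ended with the replicate block (0.122) and against a fold change of 1.2 (1). Over both treatments it held in all 12 cases (-0.72 ± 0.09, adjusted p = 4.00e-04).

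Libraries held 16024152 to 45600483 reads counted in genes. Counted over the whole gene, Kdm5c itself had 75.1, 75.4 and 74.5 CPM in untreated KO libraries, against 74.6, 73.4 and 75.5 CPM in untreated WT libraries, and 77.7, 76.9 and 85.6 CPM in KO novelty libraries, against 99.2, 89.2 and 95 CPM in WT novelty libraries. It had 70.6, 65.0 and 66.2 CPM in ifKO libraries, against 63.4, 68.9 and 63.9 CPM in control libraries. A count over the whole gene does not show whether part of it was deleted, so it checks neither the labels nor the deletion, and KO and ifKO above stand for the libraries labelled so.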

How the data were processed

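RNA of pooled hippocampi was sequenced in 18 libraries, held as 24 sample records since each read pair has 2. The authors deposited raw read counts per Ensembl gene, made with STAR 2.5.0c, SAMtools 1.3 and HTSeq 0.6.1 on GRCm38, per the submitters' processing notes, which also name DESeq2. The rows that name no gene (no feature, 14.7% to 17.2%; ambiguous, 0.77% to 1.06%) were left out. Symbols and positions came from GENCODE M21 (46574 of 47069 IDs matched).

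Counts were tested with edgeR 4.0.16 (quasi-likelihood, TMM factors, filterByExpr with a minimum count of 10 and a total of 15), in R 4.3.3, with Benjamini-Hochberg adjustment over all genes and a threshold of 0.05. KO and WT comparisons used 12 libraries, ifKO and control 6, and the comparison of both lines 18. Printed CPM use TMM factors of all 18 libraries. The script was tested on simulated data that held no trends with GC content or transcript length. Alternatives were DESeq2 1.42.0, other size factors and filters, a test against a fold change of 1.2, a replicate block, leaving libraries out and, chosen after seeing the data, offsets for GC content and transcript length, alone and with 2 libraries left out. The 10 members and all gene lists were chosen with earlier results of these data known. All members were named, and of the 2 dentate lists up to 4 genes per comparison and direction that passed. Lists of mossy cell, inhibitory neuron, oligodendrocyte, microglia, endothelial, thalamus and blood genes were used as background on tissue composition.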

Additional observations from a re-analysis of the deposited data

How the results depend on the processing

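Leaving out each library in turn gave 0 members called in each of the 8 comparisons. Of 1390 member values recomputed, 1266 kept their sign and their side of the threshold, 99 that passed in neither setting changed sign, 25 passed only in the alternative and 0 reversed a call. Without WT novelty library 1 and KO novelty library 2 the members called were 4 for KO against WT after novelty, 3 over both treatments (Prox1, Stxbp6 at -0.29 and Rfx3 at -0.39), 1 for WT novelty against untreated (Calb1 at 0.30, adjusted p = 0.0496 by edgeR) and 3 for the interaction (Calb1 at -0.45, Stxbp6 at -0.53, Rfx3 at -0.85). Of all 16556 genes in that fit, 705, 703, 451 and 331 were called in these comparisons, in the same order. With every library the counts were 219, 461, 63 and 0 of 16392 genes. With GC and length offsets as well as the pair left out the members called were 1 untreated (Dcx at -0.26, adjusted p = 0.0485 by edgeR), 3 after novelty, 3 over both treatments (Prox1 at -0.38, Stxbp6 at -0.25, Rfx3 at -0.32), 1 for WT novelty against untreated (Dcx at -0.42) and 0 for the interaction. Of all genes in that fit, 575, 468, 826, 661 and 54 were called, in the same order. With no low-count filter the members called were 1 over both treatments and 3 for ifKO against control, where 2.28% and 1.39% of genes were called. With GC and length offsets the members were 1 over both treatments and 1 for WT novelty against untreated, where 4.53% and 2.09% of genes were called. DESeq2, other size factors, the 1 CPM filter, the fold-change test and the fits of only the groups compared called 0 in each comparison, and the cause of the other differences was not tested. For same-numbered libraries of different groups, the deviations of log2 CPM from the mean of each library's own group correlated between -0.33 and 0.41. No pair of groups had every value above 0.1. KO novelty libraries had 0.16, 0.41 and 0.03 with WT novelty libraries and 0.08, 0.24 and 0.15 with KO untreated libraries. With 3 libraries in a group, pairing by replicate number was neither shown nor excluded, and the main fits did not use it. With the replicate block 0 members were called in each comparison, and genes called were 33 for WT novelty and 6 for KO novelty against untreated, where the fit without it gave 63 and 18.

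Replicate block counts are given above. Counts over all genes moved by more than 1.5 times as follows, though the ranges for single libraries left out also hold smaller moves. For KO against WT untreated (204) they were 347 without the filter, 122 against a fold change of 1.2, 318 with only the groups compared, 415 without the pair of libraries, 329 with offsets and 121 to 149 with single libraries left out. After novelty (219) they were 126, 104, 705 and 347 for the fold-change test, groups compared, pair and offsets, and 144 to 282 with single libraries left out. Over both treatments (461) they were 213, 703 and 742 for the fold-change test, pair and offsets. For WT novelty (63) they were 218 with DESeq2, 252 without the filter, 7 with the fold-change test, 6 with groups compared, 451 without the pair, 342 with offsets and 4 to 102 with single libraries left out. For KO novelty (18) the same settings gave 70, 101, 1, 10, 63, 60 and 1 to 10. The interaction (0) gave 8 without the filter and 331 without the pair. For ifKO (112) they were 398 without the filter, 49 with the fold-change test and 56 to 102 with single libraries left out. The difference between lines (20) gave 46 with DESeq2, 83 without the filter, 34 without the pair and 36 with offsets. With the pair left out and offsets together the counts were 575 untreated, 468 after novelty, 826 over both treatments, 661 for WT novelty, 150 for KO novelty and 54 for the interaction.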
